A study of Homo sapiens with 2 samples.

Results

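Polyamine metabolism was examined through 10 genes in the NeuroD1 ChIP-seq peak list of IMR-32 cells, a wild-type human neuroblastoma line known for its amplified MYCN. The genes were grouped by role as synthesis (ODC1, AMD1, SRM and SMS), catabolism (SMOX, PAOX and SAT1) and antizyme control (OAZ1, OAZ2 and AZIN1). A peak was counted for a gene when it overlapped the RefSeq gene body or lay up to 10 kb from either end. These 10 genes are a small part of the 59679 RefSeq genes on the chromosomes, of which 20037 are protein-coding. The data consisted of 1 NeuroD1 ChIP library and 1 input library, with no treatment named in the labels, and the peaks called in the ChIP library were analysed. The sample label names a NeuroD1 antibody, whereas the supplementary ChIP-seq protocol of the study names one against H3K27Ac, and the list was used as labelled. No replicate was available, so no test across samples was possible, and intervals cover counting error only. The total read number of the library is not given in the sources used here.

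Polyamines are small cationic metabolites that bind nucleic acids and are needed for proliferation. Ornithine is decarboxylated to putrescine by ODC1, and AMD1 supplies the aminopropyl donor with which SRM makes spermidine and SMS makes spermine. SAT1 acetylates polyamines for oxidation by PAOX, and SMOX oxidizes spermine directly. The antizymes OAZ1 and OAZ2 bind ODC1 and send it to the proteasome, while AZIN1 traps antizyme. ODC1 is a classical target of MYC proteins, and the pathway is studied as an N-Myc driven one in neuroblastoma. NeuroD1 is a neurogenic bHLH factor that binds E-boxes, DNA elements of the form CANNTG.

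NeuroD1 peaks were found at 4 of the 10 genes, 6 peaks in all. ODC1, AMD1 and AZIN1 each had at least 1 peak that overlapped the gene, and PAOX had a peak beside it. No peak was called within 10 kb of SRM, SMS, SMOX, SAT1, OAZ1 or OAZ2. Over all protein-coding genes, 25.1% had a peak by the same rule, and among the 13925 coding genes in the length range of these 10 (3.04 to 81.1 kb) the share was 24.3%. A peak overlapped the body of 3 of the 10 genes, against 16.0% of all coding genes. With 10 genes, each gene is a large step in the share, and no test was made on the list. Fold enrichment, the ChIP pileup over the local background at the summit with 1 added to each, had a median of 6.01 over the 6 peaks and of 6.79 over all 6183 peaks. The 6 values ran from 4.25 to 9.48, whereas the highest in the list was 70.0.

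**Figure D1:**
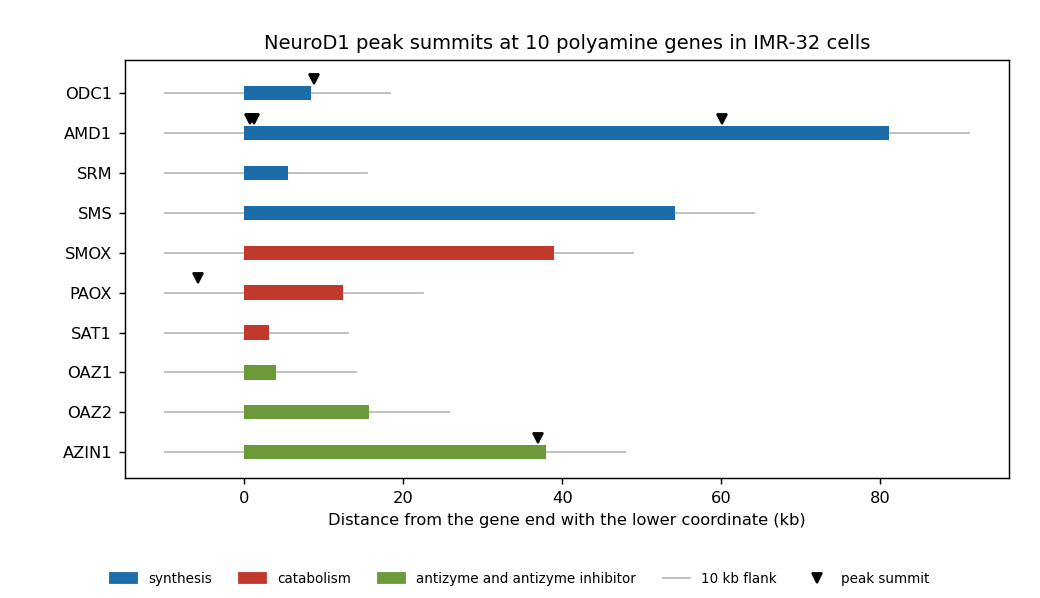
The 10 genes are drawn to scale as bars coloured by role, from the end with the lower coordinate, in kb, with 10 kb flanks as thin lines and NeuroD1 peak summits as triangles. Triangles stand at ODC1, AMD1, PAOX and AZIN1, and AMD1 carries 3 of the 6.

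The highest fold enrichment among the 6 peaks was at ODC1, the rate-limiting enzyme of the pathway. It lay on chromosome 2 from 10448227 to 10448867 (hg38), and it covered the upstream RefSeq start of ODC1 (10448327, reverse strand) from 540 bp upstream to 100 bp downstream. At the summit, 28 ChIP reads (18.6 to 40.5, 95% exact Poisson interval) were counted against a local background of 2.0 implied by the deposited values, in units where 1 ChIP read counts 0.9801. This gave a fold enrichment of 9.48, for which the counting interval was 6.41 to 13.6 if the background is taken as known. The −log10 values of p and q were 21.9 and 17.4. By fold enrichment the peak stood at rank 1157 in the list, above 81.1% of peaks, and by −log10 q at rank 858. At 641 bp it was wider than 98.7% of all peaks, whose median was 220 bp. The summit was placed toward the far side of the peak, 426 bp upstream of the start of ODC1, and no other RefSeq gene overlapped the peak. The nearest RefSeq gene on that side was the divergent transcript ODC1-DT (10449728 to 10455552), 861 bp from the peak.

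The ODC1 locus holds the best known MYC sites of the pathway, a pair of CACGTG E-boxes in the first intron. In the RefSeq promoter windows, which run from 250 bases before to 50 bases after each start, both lay around the downstream start of ODC1 (10448012), from 10448036 to 10448041 and from 10448002 to 10448007. They were 286 and 320 bp downstream of the upstream start. The NeuroD1 peak ended before them, with 185 and 219 bases between the motifs and the peak. The 250 bases upstream of the upstream start lay entirely under the peak and held no CANNTG. Both stretches are shown on the reverse strand of GRCh38.p14, from the RefSeq promoter windows, with every CANNTG in capitals. They hold these 250 bases under the peak and the CACGTG pair outside it, but not the rest of the peak. The window of the upstream start was 79.0% G and C and that of the downstream start 80.7%.
ODC1 upstream of the first start, chr2:10448328-10448577: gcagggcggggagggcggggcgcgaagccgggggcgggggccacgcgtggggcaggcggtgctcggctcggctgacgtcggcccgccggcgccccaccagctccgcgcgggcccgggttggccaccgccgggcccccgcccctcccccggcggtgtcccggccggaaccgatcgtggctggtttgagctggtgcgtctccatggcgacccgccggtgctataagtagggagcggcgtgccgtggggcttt
ODC1 around the downstream start, chr2:10448002-10448062: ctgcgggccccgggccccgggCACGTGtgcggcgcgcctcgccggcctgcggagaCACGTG
The summit of the peak lay outside these windows, so its own bases were not examined.

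ODC1 and MYCN lie on the same chromosome, 5.49 Mb apart. Within 0.5 Mb of MYCN, the 24 called peaks had an implied background from 36.9 to 60.0, whereas 95% of all peaks had a background of at most 3.0, with a median of 1.31. The 6 peaks within 0.5 Mb of ODC1 had a background from 1.15 to 3.0. The ODC1 peak was therefore not part of the region of raised background around MYCN.

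AMD1, which makes the decarboxylated S-adenosylmethionine used by SRM and SMS, had 3 peaks on chromosome 6. It was the 1 of 10 genes with 3 or more peaks, which 1.81% of coding genes had, and of its 3 peaks only the third covered a start of AMD1. The third peak, from 110874631 to 110874792, covered the downstream RefSeq starts of AMD1 (110874784 and 110874785), and its summit lay 66 bp upstream of the first of them. It held 17 reads (9.90 to 27.2, 95% exact Poisson interval) against a background of 2.0, a 5.89-fold enrichment with a −log10 q of 6.43. This value was below the median of all peaks, since 28.9% of peaks had a lower fold enrichment.

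The other AMD1 peaks lay 58.7 kb away from the third, just downstream of the upstream AMD1 start (110814617). The first, from 110815245 to 110815429, held 12 reads (6.20 to 21.0), a 4.25-fold enrichment with a −log10 q of 2.47. The second, from 110815751 to 110815982, held 18 reads (10.7 to 28.5), or 6.12-fold with a −log10 q of 7.21. When each read was weighted as 1, the closest match for the first was 4 reads, the only member peak whose reads moved by over 1.5 times. Matches at a weight of 1 were not held to the 0.1% tolerance on the deposited −log10 p. At the fitted weight no called peak had fewer than 8 reads, so the 4 is not a usable count. Both also overlapped CDK19, a Mediator kinase gene on the reverse strand whose starts lie at 110815469, 110815637 and 110815855. The summit of the second peak was 12 bp upstream of the last of these starts, against 1250 bp downstream of the AMD1 start, and the summit of the first was 183 bp downstream of a CDK19 start. These 2 peaks could therefore be counted for either gene, and the third is the peak that lay at a start of AMD1 itself.

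**Figure D2:**
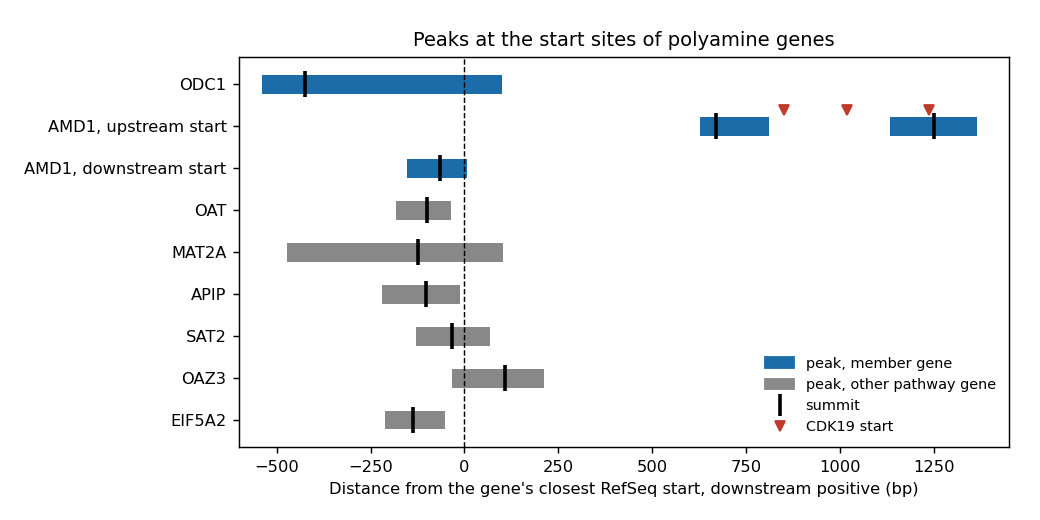
Peak intervals are drawn as bars, in bp from the closest RefSeq start of the named gene with downstream positive, for member genes in blue and other pathway genes in grey, with summits as black ticks and CDK19 starts as red triangles. The third AMD1 peak and the peaks of OAT, MAT2A, APIP, SAT2 and EIF5A2 have their summits 32 to 137 bp upstream of a start. The ODC1 summit is 426 bp upstream, and the other AMD1 summits lie nearer to a CDK19 start than to the AMD1 start.

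The bases around the summit of the third AMD1 peak are shown with those of MAT2A and EIF5A2, pathway genes described below. The RefSeq windows covered these summits in full, as they did those of OAT, APIP and SAT2, which are not shown. Each stretch is 101 bases centred on the summit, on the strand of the gene (forward for AMD1 and MAT2A, reverse for EIF5A2), in GRCh38.p14, with every CANNTG in capitals. The AMD1 stretch held no E-box, MAT2A held CAAGTG 98 bp upstream of its start, and EIF5A2 held CACGTG at 187 and 162 bp upstream. Of the stretches not shown, that of OAT held no E-box, APIP held a CAGGTG and SAT2 a CAGTTG. The nearest E-box in the AMD1 window was a CAGCTG that began 233 bp upstream of the start, outside the peak, which reached 153 bp upstream.
AMD1, chr6:110874668-110874768: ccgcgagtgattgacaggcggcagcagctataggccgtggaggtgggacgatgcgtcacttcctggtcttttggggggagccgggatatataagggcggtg
MAT2A, chr2:85538995-85539095: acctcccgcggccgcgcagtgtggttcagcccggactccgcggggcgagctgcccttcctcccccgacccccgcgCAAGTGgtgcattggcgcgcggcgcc
EIF5A2, chr3:170908724-170908824: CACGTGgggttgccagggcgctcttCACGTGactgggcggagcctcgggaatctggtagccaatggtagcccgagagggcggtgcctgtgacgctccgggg

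The remaining synthesis genes had no called peak. SRM, the spermidine synthase on chromosome 1 (11054589 to 11060018), was 42.0 kb from the nearest peak, which had a fold enrichment of 4.83. Its promoter window held a CACGTG that began 199 bp upstream of the start, and this stretch is shown because it carries an E-box of the N-Myc type where no NeuroD1 peak was called. SMS, the spermine synthase on chromosome X (21940709 to 21994837), was 2031 kb from the nearest peak, farther than 95.5% of coding genes.
SRM upstream of its start, chr1:11060187-11060247, reverse strand: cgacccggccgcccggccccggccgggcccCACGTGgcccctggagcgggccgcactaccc

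Among the catabolic genes, only PAOX, the oxidase of acetylated polyamines, had a peak within 10 kb. The peak lay on chromosome 10 from 133373324 to 133373495, which is 5767 bp from PAOX and is the peak closest to the limit of 10 kb, the next gene outside it being SRM at 42.0 kb. It held 15 reads (8.40 to 24.7, 95% exact Poisson interval), a 7.71-fold enrichment with a −log10 q of 8.34, over the lowest background in the list (1.04). The peak overlapped ECHS1, which encodes a mitochondrial enoyl-CoA hydratase, and its summit lay 63 bp upstream of the ECHS1 start, so ECHS1 was its nearest gene. SAT1, the acetyltransferase on chromosome X (23783173 to 23786210), was 239 kb from a peak, and SMOX on chromosome 20 (4148828 to 4187727) was 259 kb away. No catabolic gene thus had a peak in its body.

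Within the antizyme group, the inhibitor AZIN1 had a peak and the antizymes had none. The AZIN1 peak lay on chromosome 8 from 102863121 to 102863313, inside the gene, with the summit 943 bp from the end with the higher coordinate. With 11 reads (5.49 to 19.7, 95% exact Poisson interval) it was 5.79-fold enriched, at a −log10 q of 4.24, over the lowest background. It had the fewest reads of the 6 peaks at the fitted read weight. With a weight of 1, the closest matches were 8 reads for AZIN1 and 4 for the first AMD1 peak, but these were not held to a tolerance. OAZ1 on chromosome 19 (2269486 to 2273488) was 55.1 kb from the nearest peak and OAZ2 on chromosome 15 (64687574 to 64703281) was 202 kb away. Over all coding genes, the median distance to the nearest peak was 94.9 kb, with quartiles of 9.75 and 352 kb, so SRM and OAZ1 were nearer than the median gene and OAZ2, SAT1, SMOX and SMS were farther.

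**Figure D3:**
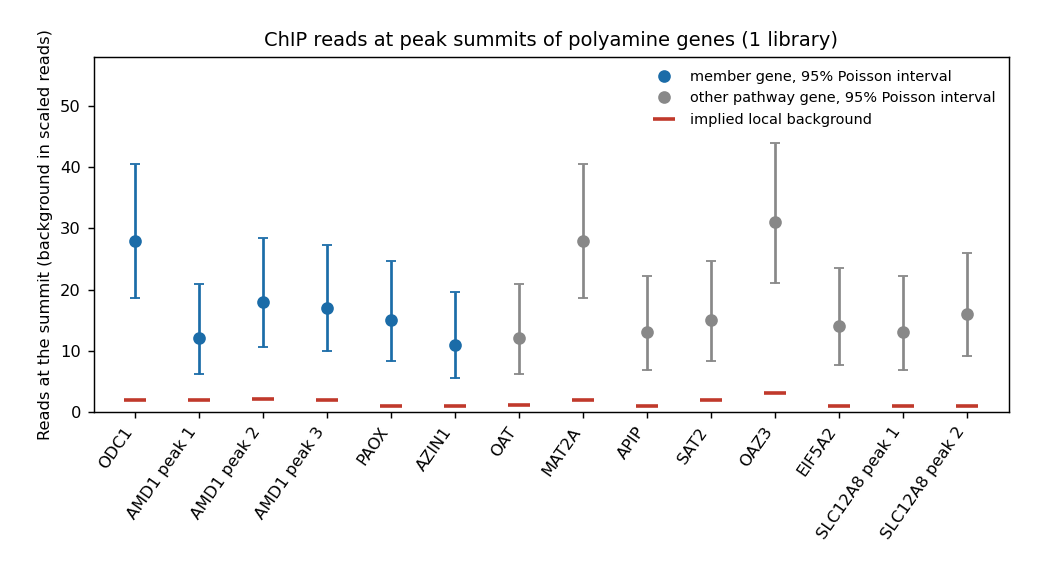
ChIP reads at the summit are plotted for each peak of the member genes (blue) and of the other polyamine pathway genes (grey), with 95% exact Poisson intervals, and red dashes give the implied local background in scaled reads. ODC1 and MAT2A share the same value of 28 reads, OAZ3 reaches 31, and the other peaks lie between 11 and 18.

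When roles were compared, synthesis genes had a peak in 2 of 4, catabolic genes in 1 of 3 and antizyme control genes in 1 of 3. Over all coding genes the share was 25.1%. The synthesis group held 4 of the 6 peaks, with fold enrichments from 4.25 to 9.48 and a median of 6.01, against 7.71 at PAOX and 5.79 at AZIN1. These 4 include the 2 upstream AMD1 peaks, whose summits were closest to starts of CDK19. The PAOX peak was likewise closest to a start of ECHS1. The synthesis peaks with a start of their own gene closest were ODC1 (9.48) and the third AMD1 peak (5.89). The counting intervals of fold enrichment of all 6 peaks overlapped one another, since the highest lower limit was 6.41 and the lowest upper limit was 7.18. Overlap of intervals does not show that the peaks were alike, and differences between single peaks were not tested. RefSeq promoter windows were matched for 7 of the 10 genes, namely all synthesis genes, SAT1, OAZ1 and OAZ2. A peak overlapped a window of 2 of these 7, ODC1 and AMD1, against 13.7% of the 15843 coding genes with a window. By this narrower rule, the genes with a peak at a start were 2 of 4 in synthesis and 0 of 3 among SAT1, OAZ1 and OAZ2. The count of 0 was fixed beforehand, since none of these 3 had a peak within 10 kb. PAOX and AZIN1, the genes outside synthesis with a peak, had no matched window, so this rule cannot compare the roles. Promoter windows of PAOX, SMOX and AZIN1 were not used here. Genes are not replicates, so these counts are a description of 1 library.

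Some of these peaks were shared with other genes. Of the 6 peaks, 3 lay within 10 kb of a second coding gene (both upstream AMD1 peaks with CDK19, and the PAOX peak with ECHS1), whereas among all 4833 peaks near coding genes 30.7% did so. When each peak was given only to the nearest coding gene, and CDK19 and AMD1 were counted together where both overlapped, 3 genes kept a peak, ODC1, AMD1 and AZIN1. Over 5583 pairs of a coding gene and a peak within 10 kb, the RefSeq start closest to the summit belonged to that gene in 57.6%. These pairs are a part of all such pairs. Summits within 250 bp of any RefSeq start made up 34.2% of the 5995 peaks on chromosomes with promoter windows. Among the 5 member peaks on those chromosomes, 4 were that close to a start, but for 3 of them the start was of CDK19 or ECHS1.

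The local background differed among the peaks and sets how many reads a call needed. All peaks of ODC1 and AMD1 had a background of 2.0 to 2.04, whereas PAOX and AZIN1 had the lowest level of 1.04, which 32.8% of all peaks shared. The fewest reads of any called peak were 8 at the lowest level and 11 at a background of 2.0. The first AMD1 peak, with 12 reads, was thus close to the weakest sites in the list, at rank 6008 by −log10 q. The AZIN1 peak, with 11 reads at the lowest level, stood at rank 5103. For the 6 genes with no peak, the absence of a call says only that no site reached such a level.

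**Figure D4:**
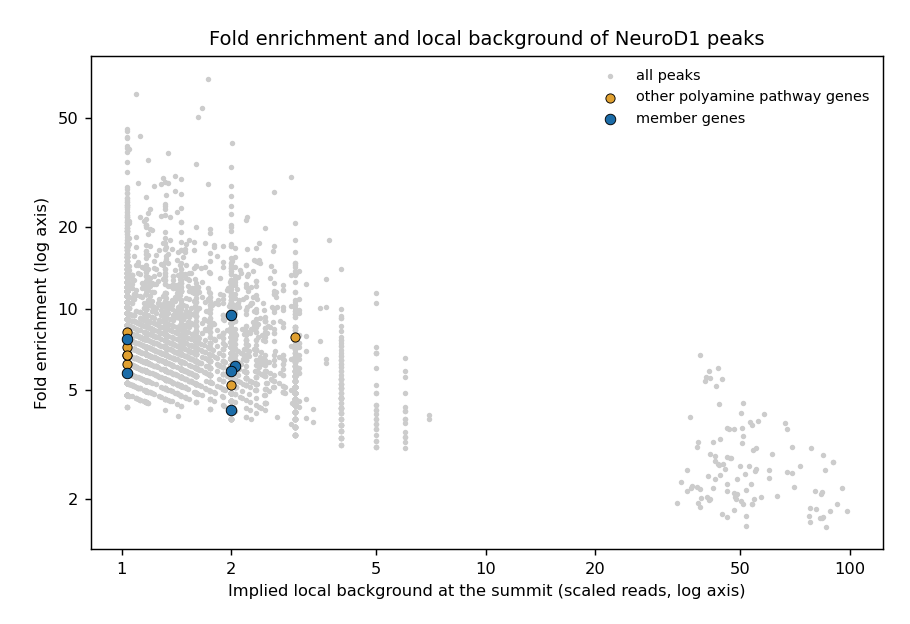
Fold enrichment is plotted against the implied local background for all 6183 peaks (grey), with peaks of member genes in blue and of other pathway genes in orange, on log axes. Member peaks sit at backgrounds from 1.04 to 2.04, to the left of a separate group at high background that includes the 24 peaks around MYCN at 36.9 to 60.0. The point of MAT2A lies under that of ODC1.

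The share of coding genes with a peak also differed between chromosomes. On chromosome X, which carries SMS and SAT1, 27 peaks were called and 2.83% of 848 coding genes had one within 10 kb. On the autosomes the share ran from 17.7% on chromosome 4 to 40.6% on chromosome 17. The autosomes of the other 8 member genes had shares from 21.1% (chromosome 8, AZIN1) to 32.1% (chromosome 19, OAZ1). Of these 8 autosomal genes, 4 had a peak. The part of the chromosome in the result for SMS and SAT1 was not tested.

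Promoter sequence was compared between the member genes and the genome. The 10 RefSeq windows of the 7 matched genes had a median content of G and C of 71.3%, against 68.0% in the 2921 windows that a peak overlapped and 58.7% in all 35116 windows. Each motif was read on both strands, and the specific E-boxes below are also counted under the general form. The form CANNTG was present in 6 of the 10 member windows and in 68.7% of all windows. CACGTG was present in 2 of 10, at the downstream start of ODC1 and at SRM, against 7.26%. CAGCTG was present in 3 of 10, in the overlapping windows of the downstream AMD1 starts and at OAZ2, against 18.0%. CAGATG, the form that NeuroD1 is known to prefer, was present in 1 of 10, at OAZ2, against 14.7%, and OAZ2 had no peak. Peaks were then compared with promoters lacking one, over 1638 peaks whose 101 summit bases fell inside a promoter window and 32041 windows with no peak, read from 175 to 75 bp upstream of the start. CANNTG was present in 27.1% of the summit stretches and in 34.1% of the others. For CAGATG the shares were 4.34% and 5.23%. For CAGCTG they were 7.94% and 5.97%. The N-Myc type CACGTG was found in 3.72% and 2.26%. The sets compared were not matched for content of G and C, and the 1638 peaks at promoters are a part of all 6183. The shares therefore do not show whether E-boxes are rarer at NeuroD1 peaks. In its own motif analysis of NeuroD1 binding sites, the paper reported significant enrichment of NeuroD1 motifs. These matches describe letters in fixed windows and not bound sites.

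The wider pathway was described with 31 further genes, of which 7 had a peak within 10 kb (22.6%, close to the 25.1% of all coding genes). Their 8 peaks had fold enrichments from 5.23 to 9.48, with a median of 6.99. Of the 3 genes that supply S-adenosylmethionine, MAT2A had a peak and MAT1A and MAT2B had none. MAT2A encodes the methionine adenosyltransferase of most tissues outside the liver and makes the substrate of AMD1. Its peak on chromosome 2 from 85538694 to 85539272 covered the start and had the same fold enrichment (9.48), reads (28) and background (2.0) as that of ODC1, which 13 peaks of the list shared. At 579 bp it was also wide, wider than 98.0% of all peaks. The summit lay 123 bp upstream of the MAT2A start, and the peak also overlapped the antisense transcript PARTICL.

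The other genes were spread over the remaining roles. For ornithine and arginine supply, OAT, which interconverts ornithine and glutamate semialdehyde, was the 1 of 5 genes with a peak, with a fold enrichment of 6.27, 12 reads and the summit 99 bp upstream of its start. In methylthioadenosine salvage, APIP was the 1 of 5 with a peak (fold enrichment 6.75, 13 reads), but the peak overlapped PDHX and its summit lay 43 bp downstream of the PDHX start. Among 4 further genes of catabolism and the antizyme family, SAT2 had a peak of 5.23-fold with 15 reads that also overlapped SHBG, and OAZ3, a testis antizyme, had a peak of 7.85-fold with 31 reads. The OAZ3 summit was 91 bp upstream of a start of MRPL9 and 107 bp downstream of an OAZ3 start. In hypusination, the spermidine-dependent modification of the translation factor eIF5A, EIF5A2 was the 1 of 4 genes with a peak (7.23-fold, 14 reads, summit 137 bp upstream), while EIF5A, DHPS and DOHH had none. In transport, 1 of 10 genes had a peak, SLC12A8, with 2 peaks of 6.75-fold and 8.20-fold at 9.29 and 8.95 kb from the gene. Counting both lists, the summits of ODC1, the third AMD1 peak, MAT2A, OAT and EIF5A2 were those for which the closest RefSeq start belonged to the polyamine gene and no other RefSeq coding gene overlapped the peak. The AZIN1 peak, which overlapped AZIN1 alone, was not assessed for its closest start.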

How the data were processed

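NeuroD1 ChIP-seq was performed by the authors on IMR-32 cells, with 1 ChIP library and 1 input library. Per the labels, the submitters' processing notes name BWA 0.7.17, MACS2 2.2.7 and hg38, whereas the peak names carry macs3. Neither the control used nor the cutoff on q is given in the sources used here, and the input was not analysed here. The deposited fold enrichment is a ratio of pileup to local background at the summit. The deposited columns of −log10 hold the p-value and the q-value, and the deposited score is 10 times the −log10 q, cut to a whole number (6182 of 6183 rows). A last deposited column, the fold enrichment divided by the width, was not used.

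ChIP reads and background were solved for each peak from its ratio and its p-value by the Poisson formula of MACS. The weight of 1 read, 0.9801, was fitted on the 40 most common value pairs, and 99.98% of peaks were solved within 0.1% of the deposited −log10 p. The solver was tested on simulated data. The library depth is unknown. Intervals are exact Poisson intervals at 95%, for counting error only.

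Genes, starts and promoter windows were taken from RefSeq of GRCh38.p14, whose build matches hg38. All 10 members and 31 further pathway genes matched by symbol. The members and lists were chosen with earlier results of these data known. The genes named were all members, pathway genes with a peak, genes that overlap or lie nearest to a member peak, and MYCN. Neighbours of pathway peaks, pathway genes with no peak, and chromosomes were named after their values were seen. Alternatives were a −log10 q or a fold enrichment of at least 5, other distances, the summit alone, the nearest coding gene, another rank and another read weight. Positions count from 1. Scripts ran in Python 3.11.15 with scipy 1.17.1, pandas 2.3.3, numpy 2.4.6 and matplotlib 3.10.9.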

Additional observations from a re-analysis of the deposited data

How the results depend on the processing

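No paired analysis was possible because there was 1 ChIP library and no replicate. The number of member genes with a peak (4) was between 3 and 5 under every alternative run, and that of synthesis genes (2) was 2 under all but the distance of 50 kb, where SRM made it 3. The count of catabolic genes (1) was 0 with gene bodies only, with 3 kb and with the nearest coding gene only, since the PAOX peak lies 5767 bp away and overlaps ECHS1. The count of antizyme control genes (1) was 0 with a −log10 q of at least 5, since the AZIN1 peak had 4.24. Among the 31 further genes the count (7) was 3 with gene bodies only and 12 with 50 kb, and the share of all coding genes (25.1%) was 16.0% and 39.9%, as fewer or more bases are searched. The other 41 values were within 1.5 times, among them the rank of the ODC1 peak. With a weight of 1 per read, the median of the member peaks was 13.5 reads in place of 16. The closest match for the first AMD1 peak was 4 reads in place of 12. Matches at a weight of 1 were not held to the 0.1% tolerance, so they are not read counts to rely on. The library depth is unknown, and its part in peaks with few reads was not tested.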
